A study of Mus musculus with 12 samples.

Results

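Notch signalling was followed in the mouse anterior prostate through 10 genes chosen by name: the receptors Notch1, Notch2, Notch3 and Notch4, the ligands Jag1, Jag2, Dll1 and Dll4, and the target genes Hes1 and Hey1. All 10 were measured among 19935 genes, each by 1 transcript cluster, the set of probes that reads a gene on the array. APT121 males, whose prostate carries prostatic intraepithelial neoplasia (PIN), were compared with wild type males. The transgene encodes T121, a truncated SV40 large T antigen that inactivates pRb and its relatives, and is driven by a probasin promoter, which is active in prostate epithelium. The 4 APT121 and 8 wild type samples are each a pool of 2 mice, 12 weeks old, F3 animals of C57BL/6J and DBA/2 descent, and both genotypes ate the AIN93G diet from 3 weeks of age. The T121 transgene itself is not analysed here.

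Notch receptors sit on the surface of a cell and are switched on by Jagged or Delta-like ligands on its neighbour. A metalloprotease and then the gamma-secretase complex cut the bound receptor, and the freed intracellular part enters the nucleus, where it joins RBPJ and Mastermind proteins at genes such as Hes1 and Hey1, which encode repressors. In the prostate the pathway is known for its part in the growth and differentiation of basal and luminal epithelium, and Notch4 and Dll4 are best known from endothelium, Notch3 from smooth muscle and pericytes.

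The arrays held 1 intensity per cluster, and values below are log2 intensities. Array medians ran from 32.1 to 33.7 on the linear scale, and arrays of the same genotype correlated at 0.990 to 0.995 across genes, which are not independent replicates. Markers of the lobe were at high intensity, with probasin (Pbsn) at 12.79 ± 0.07 in wild type (SD, n = 8) and 9.53 ± 0.58 in APT121 (SD, n = 4). Wild type array 6 stood apart in the mean of 8 seminal vesicle genes, at 9.05 against 3.56 to 4.26 in the other wild type arrays and 5.57 to 7.06 in APT121. Wild type arrays 7 and 5 had the highest means of 5 adipose genes, at 6.04 and 5.76, and arrays 5, 6 and 7 were left out together as an alternative. Without them 7 of the 10 Notch genes, 32 of 47 other pathway genes and 65 of 92 measured cell type markers passed the test used below, against 8, 35 and 76 with all arrays. Over all 19935 genes, 9314 passed without them and 10527 with all arrays.

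In APT121 prostate the receptors Notch1 and Notch2 rose more than 3-fold, while most ligands and the target gene Hey1 fell. Of the 10 genes, 3 rose (Notch1, Notch2 and Notch3), 5 fell (Notch4, Jag1, Jag2, Dll1 and Hey1), and Dll4 and Hes1 did not pass the threshold, a Benjamini-Hochberg adjusted p of 0.05 over all genes (limma). Changes were common in this comparison: 52.8% of the genes tested passed, 22.8% higher and 30% lower, so 8 calls among 10 genes are to be read against that share. The median difference was -0.24 for the 10 genes and -0.09 for all genes. Called changes of at least 2-fold were rarer, at 7.68% of genes, 5.73% higher and 1.95% lower, and 2 members were among them, Notch1 and Notch2, both higher. The APT121 and wild type values did not overlap for 4 of the 10 genes, 2 higher (Notch1 and Notch2) and 2 lower (Jag2 and Hey1), against 34.6% of all genes, 17.7% higher and 16.9% lower. Because whole lobes were measured, fewer cells of a type and less RNA per cell cannot be told apart.

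**Figure D1:**
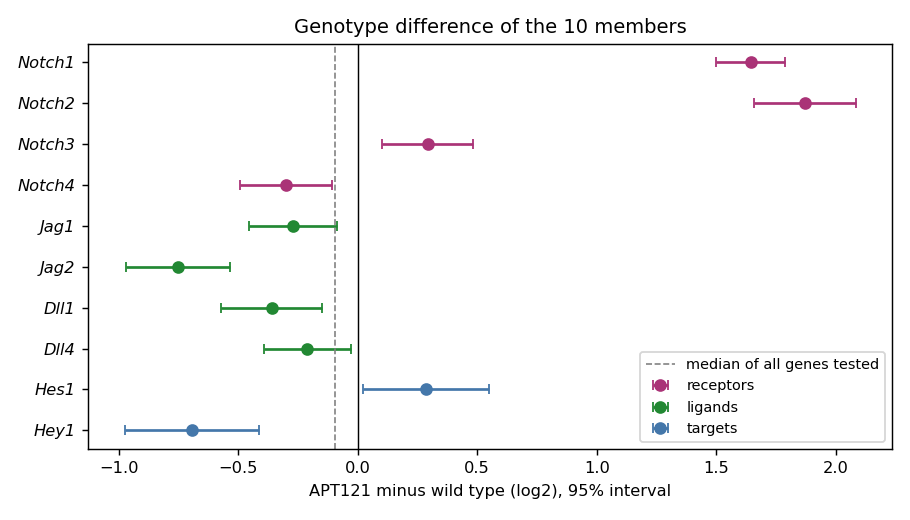
Genotype difference (APT121 minus wild type, log2) of each of the 10 genes with its 95% interval from limma, coloured by role, over 4 APT121 and 8 wild type arrays. Notch1 (1.64) and Notch2 (1.87) lie far to the right of the dashed line at the median of all genes (-0.09), and Jag2 (-0.75) and Hey1 (-0.69) lie farthest to the left.

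Notch1 is the receptor most studied in epithelial fate decisions. Its 4 APT121 arrays read 9.82, 10.01, 9.79 and 9.97, and the wild type arrays ran from 8.13 through a median of 8.26 to 8.35. Every APT121 array lay above every wild type array, with group means of 9.89 ± 0.11 and 8.25 ± 0.09 (SD, n = 4 and 8). Notch1 rose by 1.64 ± 0.07 (SE), a 3.12-fold change (adjusted p = 1.25e-11).

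Notch2 is a close relative of Notch1 that answers to the same ligands. Its APT121 arrays read 9.21, 8.96, 8.69 and 9.19, and its wild type arrays ran from 6.96 through a median of 7.17 to 7.32. The groups were again fully apart, with APT121 array 3 the lowest of its group. Notch2 rose by 1.87 ± 0.10, a 3.66-fold change (adjusted p = 2.55e-10). In absolute size the differences of Notch1 and Notch2 stood at percentiles 96.7 and 97.4 of all genes tested.

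The sequences before the start sites of these genes are shown because they are the receptors that moved most. They are the 250 bases upstream of the RefSeq start site (GRCm38.p6), 5′ to 3′ on the gene's strand, at chr2:26503823-26504072 (minus strand) for Notch1 and chr3:98013288-98013537 (plus strand) for Notch2. Capitals mark matches to any of 4 motifs searched on both strands: GTGGGAA (RBPJ), TTTCCCGC (E2F), CACGTG and CACGCG (sites of HES and HEY repressors).
Notch1: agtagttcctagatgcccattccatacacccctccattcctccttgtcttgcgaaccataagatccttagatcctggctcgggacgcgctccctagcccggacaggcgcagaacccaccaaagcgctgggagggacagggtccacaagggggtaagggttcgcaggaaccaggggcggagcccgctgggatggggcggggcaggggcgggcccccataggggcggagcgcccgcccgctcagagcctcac
Notch2: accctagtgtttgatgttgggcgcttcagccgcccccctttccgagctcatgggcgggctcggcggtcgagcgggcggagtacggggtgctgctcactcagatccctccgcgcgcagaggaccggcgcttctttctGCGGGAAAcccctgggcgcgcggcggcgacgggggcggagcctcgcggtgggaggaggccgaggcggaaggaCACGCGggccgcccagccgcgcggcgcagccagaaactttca
The Notch2 window held 1 E2F match, read on the opposite strand as GCGGGAAA, and 1 CACGCG match. The E2F letters occur in 0.895% of 32851 upstream windows of the same length, and Notch2 was the member with them. The Notch1 window held none of the 4 motifs. Jag1, Dll1 and Dll4 also held CACGCG, which 7.62% of windows hold. The RBPJ letters, in 5.42% of windows, and CACGTG, in 6.02%, were in 0 of the 8 members with a window in the table, which has no Hes1 or Hey1 entry. A match is a run of letters and was not tested for binding.

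Notch3, a receptor best known in smooth muscle and pericytes of vessel walls, was at 6.55, 6.41, 6.35 and 6.28 in APT121 and ran from 5.83 through 6.13 to 6.30 in wild type. The lowest APT121 array lay just below the highest wild type arrays, so the groups touched. Notch3 rose by 0.29 ± 0.09 (adjusted p = 0.0125). This call was narrow: it ended without APT121 array 1 (0.24, adjusted p = 0.0565) and after a second quantile normalisation (0.15, adjusted p = 0.231). With wild type arrays 5, 6 and 7 left out it ended too (0.20, adjusted p = 0.0524).

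Notch4, a receptor of endothelial cells, had APT121 values of 4.99, 4.86, 5.01 and 4.76 and wild type values from 4.97 through 5.18 to 5.48. APT121 arrays 1 and 3 lay above the lowest wild type array and the others below all 8. Notch4 fell by 0.30 on the log2 scale (SE 0.09, adjusted p = 0.0120). The means of Notch4, Dll1 and Dll4 did not reach the median of all gene means (5.43), and no detection call was used, so these signals were not shown to lie above background. In APT121 the means of Jag2 (5.36) and Hey1 (5.22) also lay below that median, so the same limit holds there. Their wild type means (6.11 and 5.91) lay above it.

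The receptors changed unequally. In each array the difference between 2 receptors was taken and compared between genotypes by an exact permutation test over 495 groupings (two-sided). The signed changes of Notch1 and Notch2 lay above that of Notch3 by 1.35 and 1.58. They lay above that of Notch4, which fell, by 1.94 and 2.17, and the change of Notch3 lay above that of Notch4 by 0.59, the gap between a rise and a fall. Each of these 5 gaps had an exact permutation p = 0.00202, the smallest this test can give (adjusted p = 0.00328 over the 13 receptor, ligand and target pairs compared). Notch2 rose by 0.23 more than Notch1, which did not pass (exact permutation p = 0.0404, adjusted p = 0.0525). Taken as Notch1 minus Notch2, that difference was -0.23. It passed without wild type array 1 (-0.26), APT121 array 2 (-0.28) or APT121 array 3 (-0.30). The adjusted p were 0.0219, 0.0438 and 0.0236 by the same exact test. With wild type arrays 5 to 8 as the controls the difference was -0.32 and also passed (adjusted p = 0.0371, exact test).

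**Figure D2:**
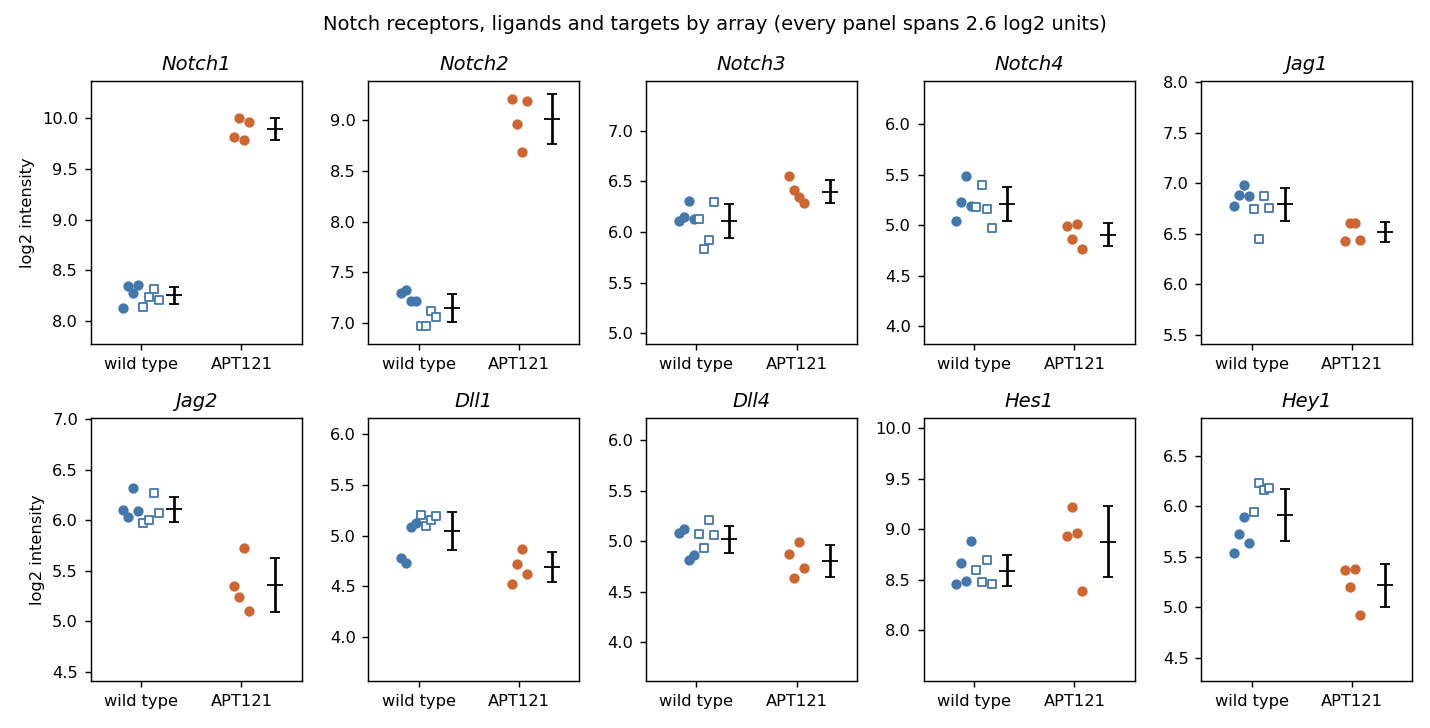
Log2 intensity of the 10 genes in every array, with the mean and SD of each group in black. Filled circles are APT121 arrays and wild type arrays 1 to 4, and open squares are wild type arrays 5 to 8. Notch1 and Notch2 in APT121 (from 9.79 and 8.69 upward) lie above all wild type arrays, Jag2 and Hey1 lie below them, and the other 6 genes overlap.

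Among the ligands, Jag2 changed most. It encodes a Jagged ligand, and its APT121 arrays read 5.35, 5.24, 5.73 and 5.10 against wild type values from 5.98 through 6.08 to 6.32. The groups did not overlap, and APT121 array 3 was the nearest to the wild type range. Jag2 was 1.68-fold lower (-0.75 ± 0.10, adjusted p = 1.28e-05).

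Jag1, the other Jagged ligand, read 6.43, 6.61, 6.60 and 6.44 in APT121 and from 6.45 through 6.82 to 6.99 in wild type. The groups met only because of wild type array 6, since the next lowest wild type array was at 6.74. Array 6 stood apart from the other wild type arrays in seminal vesicle genes, whose list means were 5.57 to 7.06 in APT121. A link to its Jag1 value was not tested. Jag1 fell by 0.27 on the log2 scale (SE 0.09, adjusted p = 0.0166). Leaving out APT121 array 1 or array 4 ended the call (-0.24 each, adjusted p = 0.0579 and 0.0531), and without wild type arrays 5, 6 and 7 the difference was -0.33 (adjusted p = 0.00350).

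Dll1, a Delta-like ligand, read 4.52, 4.72, 4.87 and 4.63 in APT121 and from 4.73 through 5.11 to 5.21 in wild type. Wild type arrays 1 and 2, at 4.78 and 4.73, fell within the APT121 range. Dll1 fell by 0.36 on the log2 scale (SE 0.10, adjusted p = 0.00678).

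Dll4, the ligand of sprouting endothelium, read 4.88, 4.63, 4.99 and 4.73 in APT121 and from 4.81 through 5.07 to 5.21 in wild type, with APT121 arrays 1 and 3 inside the wild type range. Its difference was -0.21 ± 0.09 (95% interval -0.39 to -0.03, adjusted p = 0.0512), which just missed the threshold. It passed without wild type array 3 (adjusted p = 0.0257) or 4 (adjusted p = 0.0373) and without APT121 array 3 (-0.27, adjusted p = 0.0218).

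Jag2 fell by more than Jag1 (by 0.48), Dll4 (by 0.54) and Dll1 (by 0.39), with exact permutation p = 0.00202 for Jag1 and Dll4 and 0.0162 for Dll1 (adjusted p = 0.00328 and 0.0233). Taken as Jag2 minus Dll1, the Dll1 comparison lost its call in the exact test without APT121 array 2 or 4 (-0.34 and -0.33, adjusted p = 0.0709 and 0.0788). That call also ended with wild type arrays 5 to 8 as the controls (-0.24, adjusted p = 0.155, exact test). The differences of change among Jag1, Dll1 and Dll4 were 0.15 or less in size and did not pass (exact permutation p from 0.303 to 0.606). With wild type arrays 5 to 8 as the controls, Jag1 minus Dll1 was 0.29 and passed (adjusted p = 0.0371, exact test), while it was -0.12 with arrays 1 to 4 (adjusted p = 0.304).

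The target genes changed unequally. Hes1, a repressor that keeps progenitor cells from differentiating, read 8.93, 9.22, 8.97 and 8.38 in APT121 and from 8.46 through 8.54 to 8.88 in wild type. APT121 arrays 1 to 3 lay above all 8 wild type arrays and array 4 below them. The difference of 0.29 ± 0.12 (95% interval 0.02 to 0.55) did not pass (adjusted p = 0.0644). Without APT121 array 4 it was 0.45 and passed (adjusted p = 0.00174), and it also passed without wild type array 4 (0.33, adjusted p = 0.0351).

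Hey1, a related repressor prominent in vessels, read 5.37, 5.20, 5.38 and 4.92 in APT121 and from 5.54 through 5.92 to 6.23 in wild type, with no overlap. It was 1.62-fold lower (-0.69 ± 0.13, adjusted p = 0.000361). The change of Hes1 exceeded that of Hey1 by 0.98 (exact permutation p = 0.00202, adjusted p = 0.00328).

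Of 49 other genes of the pathway, 47 were measured, of which 16 rose, 19 fell and 12 did not pass, with a median difference of -0.07 against -0.09 for all genes. The shares over all genes were 22.8% higher and 30% lower. A second quantile normalisation left 10 rises. The largest changes were of 2 ubiquitin ligases. Neurl1b, which drives the endocytosis of ligands in the signal-sending cell, rose 7.90-fold (2.98 ± 0.14, adjusted p = 3.84e-11), and Dtx4, a Deltex ligase that acts on the receptor, rose 7.77-fold (2.96 ± 0.14, adjusted p = 5.13e-11). The second cluster of Neurl1b gave a smaller rise of 1.63 ± 0.12. In wild type the mean of Neurl1b (4.99) lay below the median of all gene means (5.43). Its fold change thus rests on a wild type signal not shown to lie above background. No other ligase or endocytic regulator among the 12 moved by as much, with 3 higher and 5 lower in all, and the adaptor Numb differed by an interval of -0.13 to 0.14 (adjusted p = 0.953), with a sign that turned after median centring (-0.05).

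The non-canonical and decoy-like ligands Dll3, Dlk1, Dlk2 and Dner fell, all 4 of 4, where 30% of all genes fell. Dlk2 was down by 0.53 and Dlk1 by 0.33 on the log2 scale. The Dll3 means (3.79 in APT121 and 4.18 in wild type) lay below the median of all gene means (5.43), so its signal was not shown to lie above background. The Dlk1 call ended without APT121 array 1 (-0.24, adjusted p = 0.120), without array 2 (-0.30, adjusted p = 0.0776) and without wild type arrays 5, 6 and 7 (-0.33, adjusted p = 0.0552). Among the 5 sugar transferases that modify Notch, Lfng, the fringe enzyme that tunes receptors towards Delta-like ligands, rose 2.22-fold (1.15 ± 0.08, adjusted p = 5.08e-09). The wild type mean of Lfng (5.25) lay below the median of all gene means, and its APT121 mean (6.39) lay above. Pofut1 also rose (0.29), while Poglut1, the O-glucosyltransferase, fell by 0.61 on the log2 scale. The other fringe genes Mfng (-0.16, adjusted p = 0.192) and Rfng (-0.11, adjusted p = 0.212) did not pass, although Rfng did after a second quantile normalisation (-0.28, adjusted p = 0.00309).

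The 9 measured proteases split, with 5 higher and 3 lower, where 22.8% of all genes were higher and 30% lower. One of the 5, Aph1a, passed narrowly (0.17, limma adjusted p = 0.0449), and its second cluster did not pass (0.16, limma adjusted p = 0.0542). Adam10 and Adam17, metalloproteases that can shed the receptor, rose by 0.34 ± 0.08 and 0.70 ± 0.07. The gamma-secretase subunit gene Ncstn rose by 0.75 ± 0.13 while its catalytic partner Psen2 was 1.66-fold lower (-0.73 ± 0.07, adjusted p = 3.07e-07). In the nuclear complex, Rbpj, the DNA-binding protein of the pathway, rose 1.44-fold (0.52 ± 0.06, adjusted p = 2.71e-06), and the coactivator Maml2 rose by 0.40 ± 0.07, or by 1.26 ± 0.13 on its second cluster. Maml1 (0.13, adjusted p = 0.147) and Maml3 (0.10, adjusted p = 0.425) did not pass, and both turned sign after a second quantile normalisation (-0.03 and -0.07). A dim second cluster of Rbpj differed by -0.09 (adjusted p = 0.560).

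Of 8 further target genes, 1 rose and 5 fell, where 22.8% of all genes rose and 30% fell. Nrarp, a target that feeds back to limit Notch activity, rose 2.27-fold (1.18 ± 0.13, adjusted p = 1.01e-06), with APT121 values of 5.37 to 5.98 above wild type values of 4.23 to 4.85. Heyl (-0.40, adjusted p = 0.00308) and Hey2 (-0.38, adjusted p = 0.00926), relatives of Hey1, fell along with Hes5 (-0.34), Hes6 (-0.48) and Hes7 (-0.44). Hey2 lost its call after a second quantile normalisation (-0.27, adjusted p = 0.0610). The APT121 and wild type means of Hey2 (3.41 and 3.80) and Heyl (4.95 and 5.35) lay below the median of all gene means (5.43). The wild type mean of Nrarp (4.53) also lay below that median, and its APT121 mean (5.71) lay above. The signals of Hey2 and Heyl, and that of Nrarp in wild type, were not shown to lie above background. Hes2 (-0.12) and Hes3 (-0.18) did not pass. Windows before the start sites are printed as examples of the RBPJ letters near targets of the Hes and Hey families. Capitals mark TTCCCAC, which is GTGGGAA read on the opposite strand, at chr10:30842973-30843001 (minus strand) for Hey2 and chr4:154960686-154960714 (plus strand) for Hes5 (GRCm38.p6).
Hey2: gcgcggtggcaTTCCCACgcctctgccaa
Hes5: gggcgagcgcgTTCCCACagcccggacat
These matches begin 207 and 226 bases before the RefSeq start sites, and the Hes5 window held 2 such matches, of which 1 is shown. Of the 38 pathway genes with a window, 7 held the RBPJ letters in at least 1 of their 51 windows, against 5.42% of all single windows. Lfng and Spen, which rose, and Hes5, Hes7, Hey2, Psen2 and Rbpjl, which fell, were the 7.

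**Figure D3:**
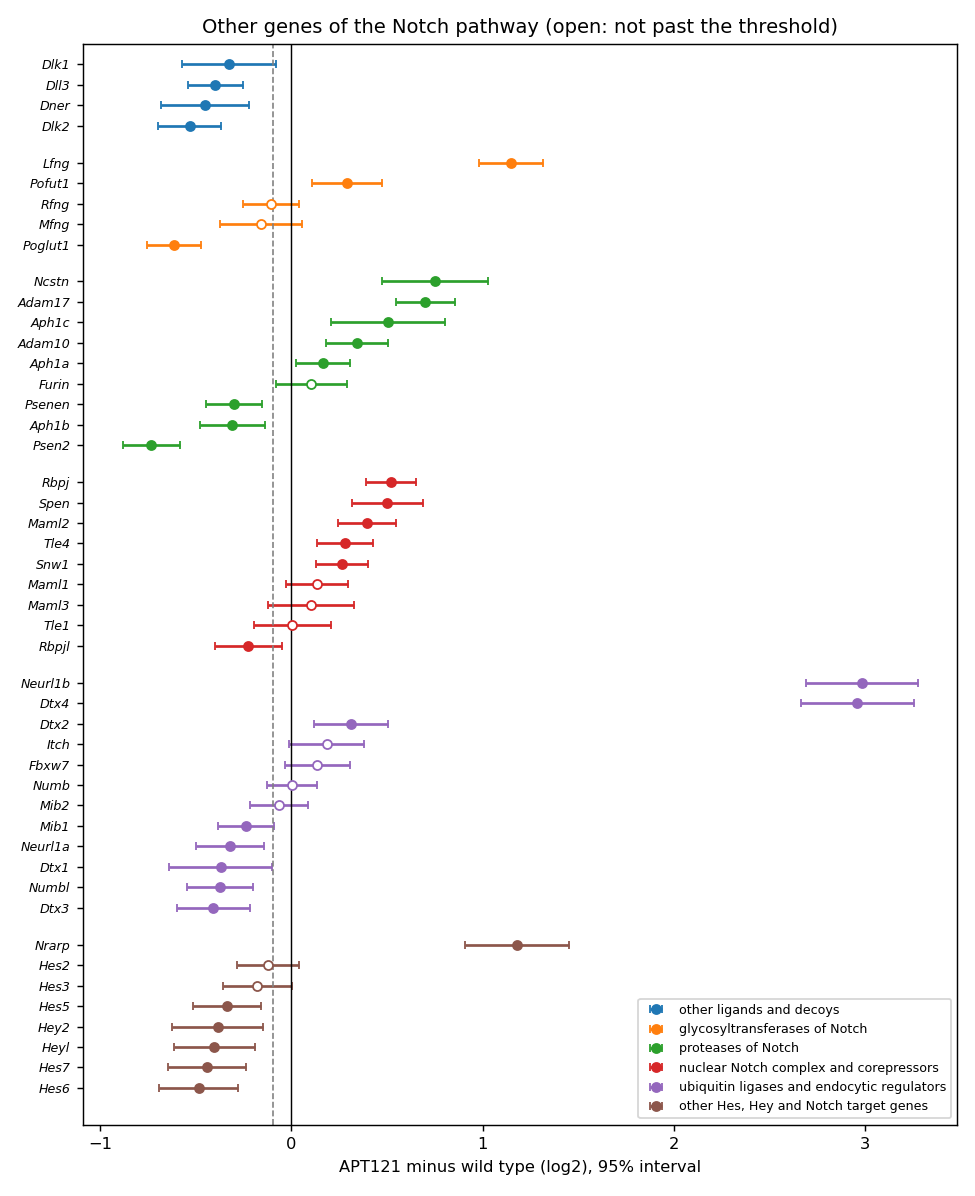
Genotype difference (APT121 minus wild type, log2, with 95% interval from limma) of 47 other Notch pathway genes, grouped by role and sorted within each group, with open symbols for genes that did not pass. Neurl1b (2.98) and Dtx4 (2.96) stand far to the right, Nrarp (1.18) and Lfng (1.15) follow, and the dashed line marks the median of all genes.

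Markers of the cells that can carry Notch genes moved in the same arrays. Over all genes 30% were called lower and 22.8% higher. Endothelial markers fell for 14 of 16 genes (median -0.41), with list means of 5.29 to 5.43 in APT121 and 5.74 to 5.90 in wild type. Pecam1 (-0.53), Cdh5 (-0.37) and Kdr (-0.80) were among those that fell, beside -0.30 for Notch4, -0.21 for Dll4 and -0.69 for Hey1. Smooth muscle markers fell for 10 of 10 genes (median -0.76, list means 8.68 to 9.06 against 9.46 to 9.68), among them Acta2 (-0.39) and Myh11 (-0.51). Pericyte markers fell for 4 of 5, or 2 of 5 without APT121 array 4 (list means 5.14 to 5.49 against 5.59 to 5.83), Pdgfrb by 0.37 on the log2 scale, beside a rise of Notch3. Fibroblast markers fell for 8 of 8, or 5 of 8 against wild type arrays 1 to 4 alone (list means 7.09 to 7.80 against 7.85 to 8.26 with all arrays). APT121 array 4 was the lowest in each of these 4 lists. It was also the lowest APT121 array in the luminal (10.61), basal (6.38), myeloid (5.64), neuroendocrine (4.79) and adipose (4.39) lists. Among the members, array 4 was the lowest APT121 array for Notch3, Notch4, Jag2, Hes1 and Hey1, but not for Notch1, Notch2, Jag1, Dll1 or Dll4. The part of cell type content in the Notch differences was not tested.

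Epithelial markers moved both ways, where 30% of all genes were called lower and 22.8% higher. Of 8 basal markers, 5 fell and 2 rose, with Krt5 at -1.29, Trp63 at -0.85 and Krt14 at -0.56 (list means 6.38 to 6.79 against 6.79 to 7.10). Against wild type arrays 1 to 4 alone, 1 basal marker rose. Of 10 measured luminal markers, 5 rose, including Krt8 (1.00), and 4 fell, including Pbsn (-3.27), while Krt18 differed by -0.04 (adjusted p = 0.589). The luminal list means were 10.612 to 10.706 in APT121 and 10.711 to 10.897 in wild type. Myeloid markers rose for 9 of 10, or 6 to 9 when arrays were left out in turn (list means 5.64 to 6.43 against 5.32 to 5.51 with all arrays). Of 7 measured lymphocyte markers 2 rose and 1 fell, and of 5 measured neuroendocrine markers 1 rose and 3 fell, with 1 or 2 lymphocyte rises and 0 to 3 neuroendocrine falls when arrays were left out in turn, and 1 and 0 without wild type arrays 5, 6 and 7. Of 8 seminal vesicle genes 3 rose, Svs2 by 6.17, Pate4 by 5.43 and Svs5 by 5.10 on the log2 scale, and 5 did not pass. All 5 measured adipose genes fell.

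**Figure D4:**
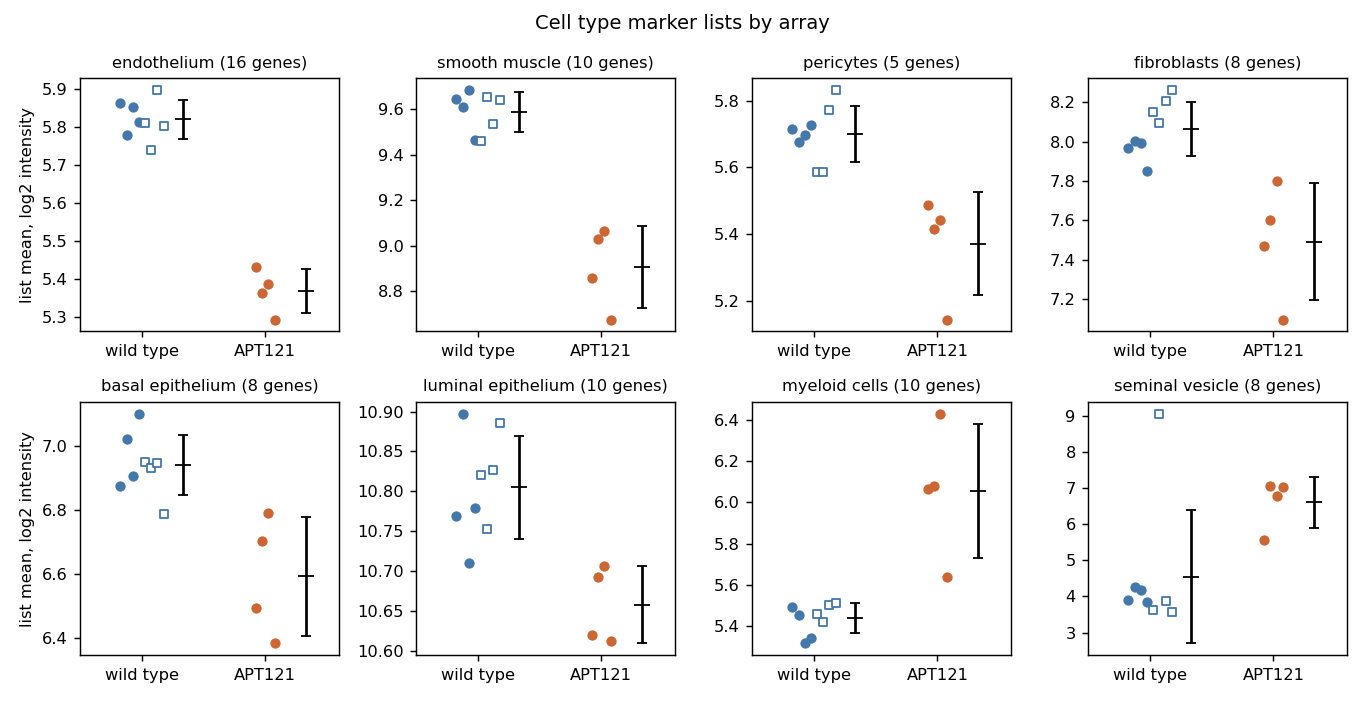
Mean log2 intensity of 8 marker lists in every array, with group mean and SD in black and symbols as in the plot of the 10 genes. The endothelial, smooth muscle, pericyte, fibroblast and luminal lists are lower in all 4 APT121 arrays than in all 8 wild type arrays. The luminal gap is narrow, with a highest APT121 array at 10.706 and a lowest wild type array at 10.711. The seminal vesicle list shows wild type array 6 at 9.05.

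The wild type arrays were not alike for all members. Arrays 1 to 4 and 5 to 8, which the labels set apart by number alone, did not overlap for Notch2 (7.21 to 7.32 against 6.96 to 7.12) or for Hey1 (5.54 to 5.89 against 5.94 to 6.23). Against arrays 1 to 4 alone Notch2 was higher by 1.75 and against arrays 5 to 8 alone by 1.99, and Hey1 differed by -0.48 and -0.91, each past the threshold. For Dll1 the difference was -0.24 with arrays 1 to 4 as controls (adjusted p = 0.0961) and -0.48 with arrays 5 to 8 (adjusted p = 0.000653). Jag1 went the other way, at -0.36 (adjusted p = 0.00344) and -0.18 (adjusted p = 0.138). Notch1 was higher by 1.62 and 1.67.

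After the mean of each genotype was subtracted, the genes most like each member over the 12 arrays were sought among 9700 or 9701 others with a mean above the median. These are the highest of many correlations over arrays that were normalised together, and carry no test. For Notch1 they were Ier2, an immediate early gene (Pearson's r = 0.93, Spearman's rho = 0.92), and Spindoc (0.89 and 0.92), and for Notch2 Slc39a9, a zinc transporter (0.98 and 0.96), and Cdc42bpb (0.96 and 0.94). For Notch4 they were Heatr3 (0.87 and 0.89) and Sox18, a transcription factor of endothelium (0.83 and 0.85). Between genotypes Sox18 fell by 0.50 on the log2 scale, while Heatr3 did not pass (0.10, limma adjusted p = 0.283). Ier2 rose by 1.13, as Notch1 did, but Slc39a9 fell by 0.41 while Notch2 rose. For Hes1 they were Fbxo5, an inhibitor of the anaphase-promoting complex (0.95 and 0.90), and Ceacam2 (0.91 and 0.71), and for Hey1 Tppp3 (0.89 and 0.88) and Ngfr (0.87 and 0.87). The others were Dhx33 and Cnot3 for Notch3, Rxrb and Krba1 for Jag1, Cfp and Icam1 for Jag2, Scube1 and Trmt10c for Dll1, and Fgd2 and Anxa7 for Dll4, with r from 0.86 to 0.95. Among the 10 genes themselves, the strongest relations were between Notch2 and Dll1 (r = -0.79) and Notch2 and Hey1 (r = -0.62), over the same 12 arrays. Notch2 and Hey1 are also the members whose wild type arrays 1 to 4 and 5 to 8 did not overlap.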

How the data were processed

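Total RNA of the anterior prostate was measured on 12 Affymetrix Mouse Gene 1.0 ST arrays, each of RNA pooled from 2 mice, and p-values refer to the spread of those pools. The deposited values are intensities on a linear scale, made by the authors with RMA (background correction, quantile normalisation, probe summarisation), per the submitters' processing notes. Its software version was not given in the sources used here. Quantile normalisation gives all arrays nearly 1 common distribution, so a difference is relative to the other genes. Arrays give no read depth, so their number limits the precision.

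Log2 of the deposited intensities was taken here. Of 28815 clusters, 21780 had 1 gene symbol, 1605 several and 5430 none in the platform annotation, 6 of the several naming Notch4 with Sympk, and those without 1 symbol were left out. For 998 genes with more than 1 cluster the highest-mean cluster was used, with no filter on low values, which left 19935 genes. The genotype difference was fitted in limma 3.58.1 under R 4.3.3 (lmFit, eBayes, genotype as the only term, two-sided, all 12 arrays, Benjamini-Hochberg), tested on simulated data. Means are given with SD and differences with SE. Pairs of members were compared by an exact permutation test. Promoter windows are from RefSeq (GRCm38.p6), found for 8 of 10 members and 38 of 49 other pathway genes.

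The members, lists and naming rule were chosen with earlier results of these data known. The rule named the 10 members, 14 fixed pathway genes, 6 more called pathway genes of largest absolute difference, 11 fixed markers and, for each member, the 2 genes most correlated with it. Other genes named were chosen after their values were seen. Listed genes without a value are not analysed here and not counted. Alternatives were 2 further scalings, filters on the lowest 25% and 50% of genes, array weights, trended and robust eBayes, averaging all clusters of a gene, a block for the replicate number, subsets of wild type arrays, each array left out, a SAM-type statistic with 100 permuted groupings (SAM is named in the design text, with a false discovery rate of 5%) and an exact permutation test. Leaving out wild type arrays 5, 6 and 7 was added after seeing the data.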

Additional observations from a re-analysis of the deposited data

Results flagged for a closer look

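Of 60 groups (30 genes in 2 genotypes), 5 held an array whose gap to the next exceeded Dixon's 95% critical value for the group's range, where chance flags about 1 in 20. Jag1 in wild type array 6 was at 6.45, with the next lowest wild type array at 6.74. Rbpj in wild type array 5 was at 7.09, below the next at 7.20. Heyl in wild type array 8 was at 5.81, above the next at 5.45. Neurl1b in wild type array 5 was at 4.33, below the next at 4.97. Dlk2 in APT121 array 1 was at 5.54, below the next at 5.74.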

How the results depend on the processing

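Notch1, Notch2, Notch4, Jag2 and Hey1 kept their direction and call in every alternative run that held them (24 or 25 each), with Notch1 between 1.56 and 1.68, Notch2 between 1.75 and 1.99, Notch4 between -0.35 and -0.25, Jag2 between -0.88 and -0.67 and Hey1 between -0.91 and -0.48. The Notch4 call was the narrowest of these, reaching a limma adjusted p of 0.0495 with 1 array left out. With 1 array left out in turn, differences ran from 0.24 to 0.33 for Notch3, -0.32 to -0.24 for Jag1, -0.42 to -0.31 for Dll1, -0.27 to -0.15 for Dll4 and 0.17 to 0.45 for Hes1. Notch3 did not pass after quantile normalisation (0.15) or without wild type arrays 5, 6 and 7 (0.20), Jag1 not against wild type arrays 5 to 8 (-0.18) and Dll1 not against arrays 1 to 4 (-0.24). Dll4 passed after median centring (-0.26), without the lowest 25% of genes (-0.21), with array weights (-0.21), against wild type arrays 5 to 8 (-0.26) and by the SAM-type statistic (-0.21), and Hes1 with array weights (0.29) and by the SAM-type statistic (0.29). SAM thus called all 10 members, where it called 10920 of all 19935 genes. The exact permutation test adjusted over all genes called 8 members. Without the lowest 50% of genes 7 members were tested and 3 were lower. Of the 9968 genes tested in that setting, 3770 were higher and 3327 lower.

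Same-numbered arrays of the genotypes did not deviate together (correlations of deviations across genes 0.07, 0.06, 0.06 and -0.03), so the numbers were not taken as pairs. With the replicate block over arrays 1 to 4, 8814 genes and 6 members passed, and Notch3 (0.23, adjusted p = 0.0670) and Dll1 (-0.24, adjusted p = 0.0677) did not.

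Signs of values near 0 turned. Maml1 was -0.0279 after quantile normalisation. Maml3 was -0.0676 there, -0.0836 with the replicate block and against wild type arrays 1 to 4, and -0.0233 without wild type arrays 5, 6 and 7. Numb was -0.0465 after median centring, -0.148 after quantile normalisation, -0.0159 with the replicate block and against wild type arrays 1 to 4, -0.0250 without arrays 5, 6 and 7 and -0.0231 to 0.0509 with 1 array left out. Krt18 was 0.00266 against wild type arrays 5 to 8. Jag1 minus Dll1 was -0.116 against wild type arrays 1 to 4 and -0.0371 without arrays 5, 6 and 7, but 0.294 against arrays 5 to 8, where it passed (adjusted p = 0.0371), and Jag1 minus Dll4 was 0.0764 against arrays 5 to 8. Causes were not tested. Of the 13 pairs, 9 passed, and 8 to 10 did over the alternatives. With 4 against 4 arrays the exact test cannot go below 0.0286.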
